A study of Mus musculus with 6 samples.

Results

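miR-124 and miR-128 are microRNAs (miRNAs) made mainly by neurons, and their mature forms were followed here in the nucleus accumbens (NAc) of mice trained with morphine or saline. All rows of the deposited table whose name begins with miR-124 or miR-128 followed by an arm or locus label were taken, which gave 5 of 1364 miRNAs: mmu-miR-124-3p, mmu-miR-124-5p, mmu-miR-128-3p, mmu-miR-128-1-5p and mmu-miR-128-2-5p, written below without the species prefix mmu. The NAc came from adult male C57BL/6N mice aged 7 to 8 weeks, which went through conditioned place preference (CPP) training for 6 days. The morphine group received 10 mg/kg morphine by intraperitoneal injection during conditioning, and the saline group received saline. Tissue was collected 0.5 h after the preference test on day 7, and small RNA was sequenced in 3 libraries per group. The deposited design text gives 2 mice per library, whereas a figure legend of the study describes 1 mouse per library. Because nothing further is stated on how the libraries of a group were separated, p-values measure the spread between these libraries.

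A miRNA is cut from a hairpin precursor, and either the 5′ arm (5p) or the 3′ arm (3p) can be loaded into the silencing complex, where bases 2 to 8, the seed, pair with target mRNAs. miR-124 is among the most abundant miRNAs of neurons and represses many transcripts of non-neuronal cells, such as the splicing repressor Ptbp1. miR-128 is likewise enriched in neurons and limits neuronal excitability, including in the dopamine-responsive neurons of the striatum, the structure to which the NAc belongs. For both families the 3p arm is the usual guide strand, and the 5p arm is the passenger strand that is mostly degraded. The study compared morphine with saline training to profile lncRNAs, miRNAs and mRNAs of the NAc in morphine addiction.

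In the GENCODE vM21 annotation of GRCm38, 3 hairpin genes can give miR-124. Mir124a-1 (chromosome 14, 64590657 to 64590741, plus strand) lies within an exon of the long non-coding RNA gene Mir124a-1hg. Mir124a-2 (chromosome 3, 17795662 to 17795770, plus strand) lies within an exon of Mir124-2hg, and Mir124a-3 (chromosome 2, 180894040 to 180894107, plus strand) within an exon of Gm27032. The table does not separate these 3 loci. miR-128 comes from Mir128-1 (chromosome 1, 128202361 to 128202430, plus strand), within an intron of R3hdm1, and from Mir128-2 (chromosome 9, 112118636 to 112118711, minus strand), within an intron of Arpp21, a gene expressed in striatal neurons.

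The miR-128 sequences are shown because the 3p arm does not tell the 2 loci apart while the 5p arms do. They come from RefSeq (GRCm38.p6), with the seed in capitals, and 3 of the 5 miRNAs matched, all of them miR-128 forms.
miR-128-3p: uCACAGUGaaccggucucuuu
miR-128-1-5p: cGGGGCCGuagcacugucuga
miR-128-2-5p: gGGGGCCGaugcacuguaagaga
Both hairpins give the identical 21-base miR-128-3p, so its count is the sum over Mir128-1 and Mir128-2. The 5p forms share the seed GGGGCCG and were identical at 16 of the first 21 positions, and the substitutions from miR-128-1-5p to miR-128-2-5p, counted from 1 at the 5′ end, were C1G, U9A, A10U, C18A and U19A. No other listed miRNA with a RefSeq sequence (1089 in all) had the seed of miR-128-3p, and none besides these 2 had the seed of the 5p forms. The letters of the miR-128-3p seed occurred at another position in 7 other listed miRNAs. The hairpins are printed with both mature arms in capitals to show where each form is cut.
Mir128-1 (chr1:128202361-128202430, plus strand): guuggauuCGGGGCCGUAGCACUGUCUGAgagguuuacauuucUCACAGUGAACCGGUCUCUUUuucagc
Mir128-2 (chr9:112118636-112118711, minus strand): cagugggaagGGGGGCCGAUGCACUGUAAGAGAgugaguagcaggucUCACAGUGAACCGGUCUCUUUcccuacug

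Total counts were between 4183333 and 9842050 per library, and the lowest was in saline replicate 1. Levels are given as counts per 1000000 after TMM scaling (CPM), a scaling that sets the libraries to a common middle of the miRNA ratios. Saline replicate 2 stood apart from the other saline libraries. Across 899 miRNAs its Spearman correlations with them were 0.869 and 0.874, below its correlations of 0.907 to 0.926 with the morphine libraries, so values without it are given beside those it moved. DEmiRNAs were called by the criteria of the study, a |log2 fold change| of at least 0.58 with an unadjusted p of at most 0.05, in the quasi-likelihood test of edgeR. These criteria called 264 of 1364 miRNAs, and 50.0% of these calls were toward higher levels after morphine. That share was 34.9% with scaling by library totals and 37.7% with upper quartile scaling. The median log2 fold change of all miRNAs was -0.15 with TMM and -0.40 with library totals.

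Among the 5 miRNAs, 2 were downregulated in the morphine group, miR-124-3p and miR-128-2-5p, and none was upregulated. Over all miRNAs tested, 9.68% were called lower by these criteria. With the filterByExpr filter, which leaves out miRNAs with few counts, 90 of 594 were called lower. The dominant guide strand miR-128-3p, the passenger strand miR-124-5p and the other 5p form, miR-128-1-5p, did not meet the criteria.

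**Figure D1:**
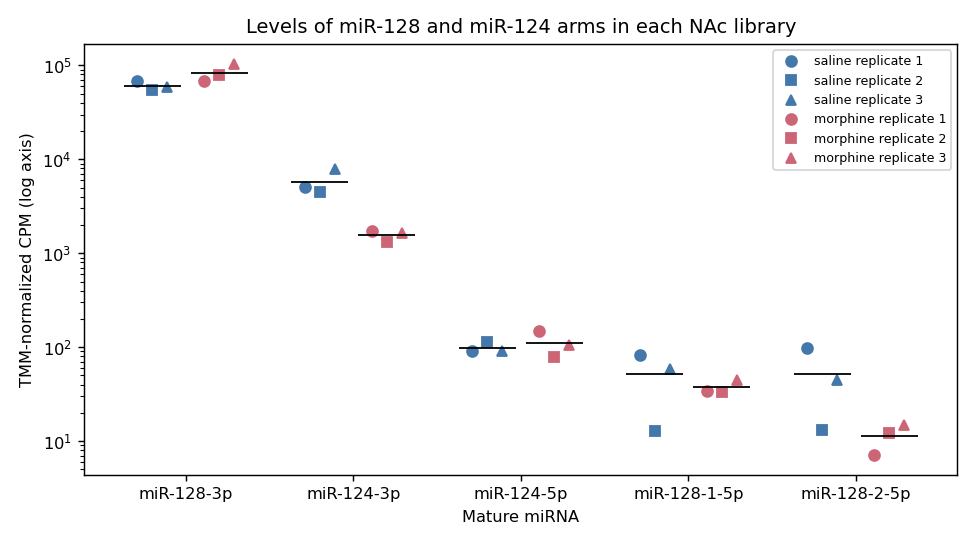
Each point is the TMM-normalized CPM of a miRNA in 1 library (log axis), with blue for saline and red for morphine, a marker shape for each replicate and a black line at the mean of the 3 libraries. The miR-124-3p points of the morphine group lie below all those of the saline group, and saline replicate 2 lies among or below the morphine points for both miR-128 5p forms.

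miR-124-3p, the guide strand of miR-124, was at 5098, 4495 and 7795 CPM in saline replicates 1, 2 and 3. It was at 1730, 1324 and 1654 CPM in morphine replicates 1, 2 and 3. Every morphine library was thus lower than every saline library, with TMM and with library totals alike. Over all miRNAs the TMM levels did not overlap for 22.1%, and every morphine library was the lower for 9.90%. Its raw counts of 27852, 29970 and 74326 ranked it 27, 47 and 19 among the 1364 miRNAs of the saline libraries. In the morphine libraries its counts of 15637, 9034 and 10536 ranked it 57, 69 and 62. Its log2 fold change came to -1.88 (adjusted p = 0.0195 in edgeR after Benjamini-Hochberg adjustment, SE 0.45), a level 3.69-fold lower in the morphine group. Over all miRNAs, 5.21% had an adjusted p under 0.05, 2.13% in the lower and 3.08% in the higher direction. The criteria of the study were met under all 16 alternative settings, with log2 fold changes from -2.28 to -1.54. The adjusted p was above 0.05 without saline replicate 3 (0.0773), morphine replicate 1 (0.189), morphine replicate 2 (0.146) or morphine replicate 3 (0.0927). Without saline replicate 2 the adjusted p was 8.4e-17, in a fit where 386 of 1328 miRNAs had an adjusted p under 0.05. Saline replicate 2 was set apart by these same data, so that value is no added support. In whole tissue, fewer neurons and less miR-124-3p per neuron cannot be told apart, and the libraries do not show which cells the reads came from.

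miR-124-5p, the passenger strand, was at 90.2, 115 and 91.1 CPM with saline and at 147, 78.8 and 105 CPM with morphine. The highest and the lowest value were both in the morphine group, so the groups overlapped. Its log2 fold change was 0.16 (95% interval -0.83 to 1.16, adjusted p = 0.852 with edgeR), a direction that turned to -0.15 with library totals and -0.10 with upper quartile scaling. This count is uncertain for another reason. miR-124b-3p, which is listed separately, had counts of 464, 768 and 852 (saline) and of 1324, 526 and 662 (morphine), between 0.941 and 1.01 of the count of miR-124-5p. It was the only row within 10% of miR-124-5p in every library. RefSeq places its hairpin gene inside Mir124a-2. The sources used here do not state whether counting used strand, so reads of the 2 forms may not be separated. Such repetition was not limited to miR-124. The mean count over the 6 libraries was 1124.5 for both miR-338-3p and miR-3065-5p. It was 777577 for miR-9-5p and 775587 for miR-9b-3p. Whether reads were counted under both names, and what this did to library totals and ranks, was not tested.

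miR-128-3p was by far the most abundant of the 5, with 55107 to 67770 CPM in the saline libraries and 67659 to 104566 CPM in the morphine libraries. It ranked between 2 and 5 in each library. The saline values were 67770, 55107 and 58366 CPM and the morphine values 67659, 79451 and 104566 CPM, which overlapped at saline replicate 1 and morphine replicate 1. The log2 fold change of 0.47 (adjusted p = 0.584 in edgeR, SE 0.45) was about the size of its standard error, and its 95% interval was -0.45 to 1.40. It stayed positive and did not meet the criteria under all 16 alternatives, from 0.098 with library totals to 0.70 without morphine replicate 1.

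The passenger strand of the Arpp21 locus, miR-128-2-5p, was at 97.2, 13.2 and 45.2 CPM in the saline libraries. It was at 7.08, 12.3 and 14.8 CPM in the morphine libraries. All morphine values were below those of saline replicates 1 and 3, but saline replicate 2 lay among the morphine values. The raw counts behind these levels were 531, 88 and 431 against 64, 84 and 94. Its log2 fold change came to -2.19 (adjusted p = 0.0463 in edgeR, SE 0.61), a level 4.55-fold lower. The value was -1.27 without saline replicate 1 (adjusted p = 0.257) and -2.65 without saline replicate 2 (adjusted p = 5.2e-12 in the same test). Leaving out morphine replicate 1 ended the call by the criteria of the study, with an unadjusted p of 0.0548 in the same edgeR test and a log2 fold change of -1.86. The adjusted p was above 0.05 under 8 of the 16 alternatives.

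The passenger strand of the R3hdm1 locus, miR-128-1-5p, was at 83.5, 12.9 and 57.9 CPM in the saline libraries and at 34.4, 33.1 and 44.4 CPM in the morphine libraries. Saline replicate 2 had the lowest value of all 6 libraries, and the other saline libraries had the highest. The log2 fold change was -0.46 (95% interval -1.66 to 0.74, adjusted p = 0.649 with edgeR). The outcome depended on 2 saline libraries. Leaving out saline replicate 2 gave -0.92, which met the criteria (adjusted p = 0.0226), while leaving out saline replicate 1 gave 0.16 (adjusted p = 0.917). Without saline replicate 2, 492 of 1328 miRNAs met the criteria and 386 had an adjusted p under 0.05.

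**Figure D2:**
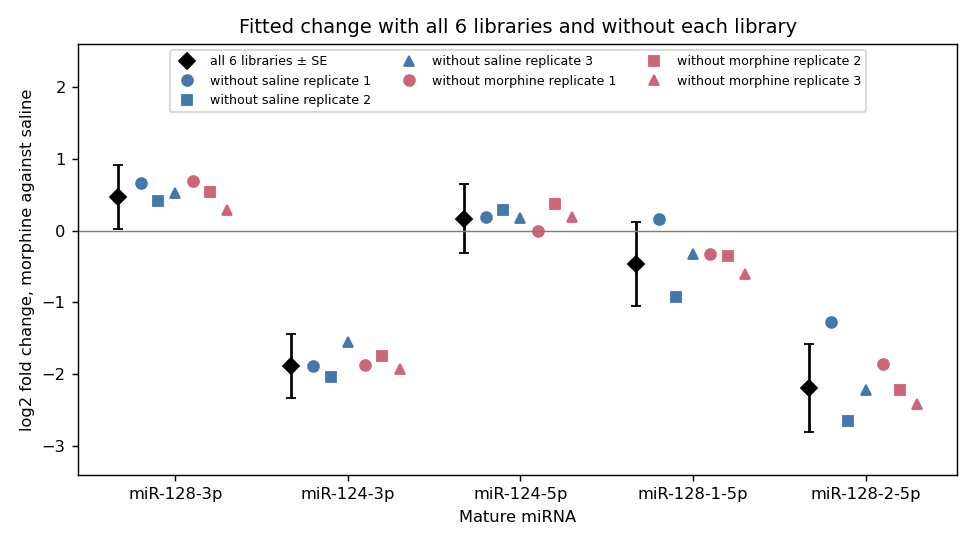
Black diamonds show the log2 fold change of morphine against saline fitted with all 6 libraries, with bars of 1 SE, and the other markers show the fit after leaving out the library named in the key. miR-124-3p stays between -2.04 and -1.54, whereas miR-128-1-5p runs from -0.92 without saline replicate 2 to 0.16 without saline replicate 1.

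Ratios between the forms within a library were compared next, because they do not depend on how libraries are scaled to each other. Each read was counted once for the mature miRNA it was assigned to, and no length term was used. With 3 libraries against 3, the exact two-sided permutation test cannot give a p under 0.1. Of the 4 ratios, 3 did not overlap between the groups and reached that value (exact permutation p = 0.133 after Benjamini-Hochberg adjustment over the 4 ratios). The ratios of any 2 miRNAs with at least 100 counts on average did not overlap between the groups for 41.4% of 69751 pairs, so separated groups were common for such ratios.

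For miR-124 there were 56.5, 39.2 and 85.5 reads of the 3p arm per read of the 5p arm in the saline libraries. There were 11.7, 16.8 and 15.7 in the morphine libraries. The log2 ratio was 5.84 ± 0.56 for saline and 3.87 ± 0.27 for morphine (mean ± SD, n = 3 each), a 3.94-fold difference (exact permutation test, p = 0.1). It stayed between -2.25 and -1.69 on the log2 scale when any library was left out. Such a shift was common in this table. Among 91 hairpins with at least 100 counts on average for both arms, 47.3% had 3p to 5p ratios that did not overlap between the groups. The median size of the difference was 1.12 on the log2 scale, and miR-124 ranked 21 by size. The uncertainty of the miR-124-5p count carries over to this ratio.

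The miR-128 loci differed in their 5p forms. miR-128-1-5p made up 46.2% (95% Clopper-Pearson interval 43.1 to 49.4), 49.4% (41.8 to 57.1) and 56.2% (53.0 to 59.3) of the miR-128 5p reads in saline replicates 1, 2 and 3. It made up 82.9% (78.7 to 86.6), 72.9% (67.6 to 77.8) and 75.1% (70.4 to 79.4) in morphine replicates 1, 2 and 3. These intervals hold only the error of counting within a library, not the spread between libraries. They make no allowance for PCR copies of a molecule, if such copies were counted. The groups did not overlap, and saline replicate 2 lay with the other saline libraries for this ratio. The log2 ratio of miR-128-1-5p to miR-128-2-5p was 0.035 ± 0.29 for saline and 1.76 ± 0.45 for morphine (mean ± SD, n = 3 each), a 3.31-fold difference (exact permutation test, p = 0.1). Leaving out any library kept it between 1.47 and 1.89.

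Reads of miR-128-3p per miR-128 5p read numbered 375, 2112 and 566 with saline, compared with 1631, 1749 and 1766 with morphine. The groups overlapped, because saline replicate 2 had the highest ratio of the 6 libraries. The log2 ratio differed by 1.16 (exact permutation test, p = 0.4), by 1.89 without saline replicate 2 and by 0.65 without saline replicate 1. The saline spread of this log2 ratio was 1.30 (SD, n = 3) against 0.063 (SD, n = 3) in the morphine group.

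The guide strands of the 2 families were set against each other last. There were 13.3, 12.3 and 7.49 reads of miR-128-3p per read of miR-124-3p with saline, compared with 39.1, 60.02 and 63.2 with morphine. Every morphine library had more than any saline library. The log2 ratio of miR-124-3p to miR-128-3p was -3.42 ± 0.45 for saline and -5.73 ± 0.38 for morphine (mean ± SD, n = 3 each), a 4.95-fold difference (exact permutation test, p = 0.1). This ratio compares the change of the 2 guide strands directly, and it stayed between -2.53 and -2.05 on the log2 scale when any library was left out.

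**Figure D3:**
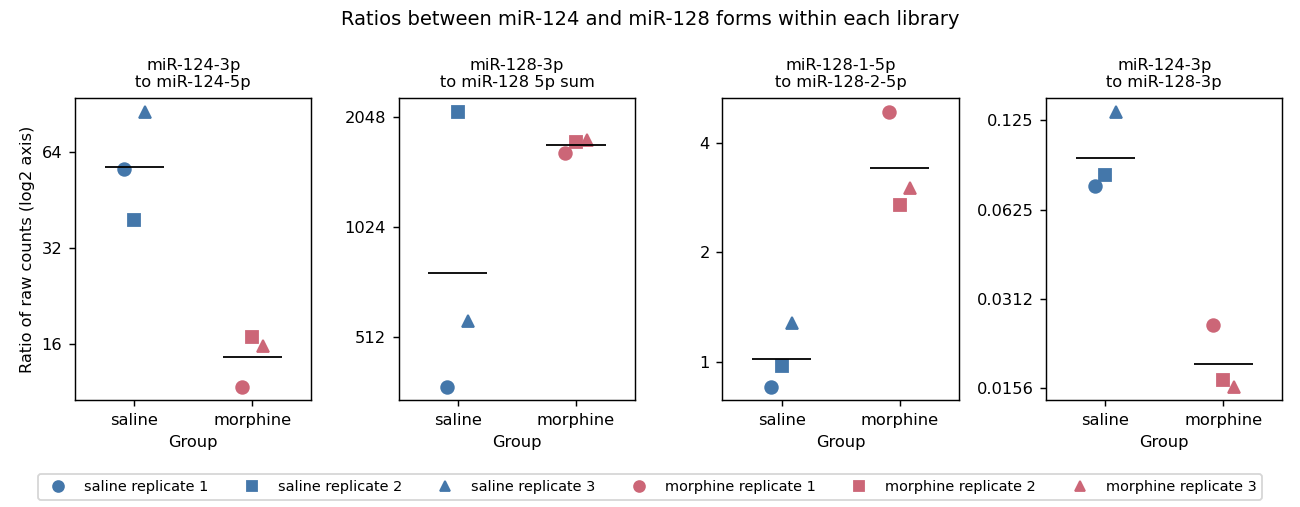
Each panel shows a ratio of raw counts in the 6 libraries on a log2 axis, with black lines at the geometric mean of each group. The groups are separated for miR-124-3p to miR-124-5p, for miR-128-1-5p to miR-128-2-5p and for miR-124-3p to miR-128-3p, while saline replicate 2 has the highest ratio of miR-128-3p to the miR-128 5p sum.

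The miR-124 and miR-128 values were set beside a list of 19 other neuron- or brain-enriched miRNAs, all of which were measured. Of these, 2 were higher, 4 were lower and 13 did not meet the criteria, against a background of 19.4% of all miRNAs called in either direction. That background includes many miRNAs with few counts. With the filterByExpr filter, 186 of 594 miRNAs met the criteria, 96 higher and 90 lower. The median log2 fold change of the list was -0.24, compared with -0.15 over all miRNAs. Without saline replicate 2, 9 were higher and 5 were lower, and the median was 0.50. In that fit 492 of 1328 miRNAs met the criteria, 278 higher and 214 lower, and the median over all of them was 0.20. The 4 lower miRNAs were miR-129-5p, miR-129-2-3p, miR-149-5p and miR-135a-5p, and the 2 higher were miR-218-5p and miR-488-3p, of which all but miR-129-5p and miR-218-5p were named after their values were seen. miR-129-5p, a miRNA with roles in synaptic scaling, was at 37534, 10095 and 29789 CPM in the saline libraries and at 5072, 6628 and 6793 CPM after morphine. Its log2 fold change of -2.07 (adjusted p = 0.0207 in edgeR, SE 0.49) was the only one of the list with an adjusted p under 0.05, and its groups did not overlap. miR-218-5p, hosted by the axon guidance genes Slit2 and Slit3, went the other way, with a log2 fold change of 1.53 (adjusted p = 0.0698 in edgeR, SE 0.49). The log2 fold changes of miR-9-5p (-0.15), miR-7a-5p (0.66) and miR-132-5p (0.64), the other abundant miRNAs of the list, did not meet the criteria. miR-7a-5p showed the same outlying saline library as the miR-128 passenger strands but in the opposite direction, with 2720, 41066 and 4479 CPM in saline replicates 1, 2 and 3.

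**Figure D4:**
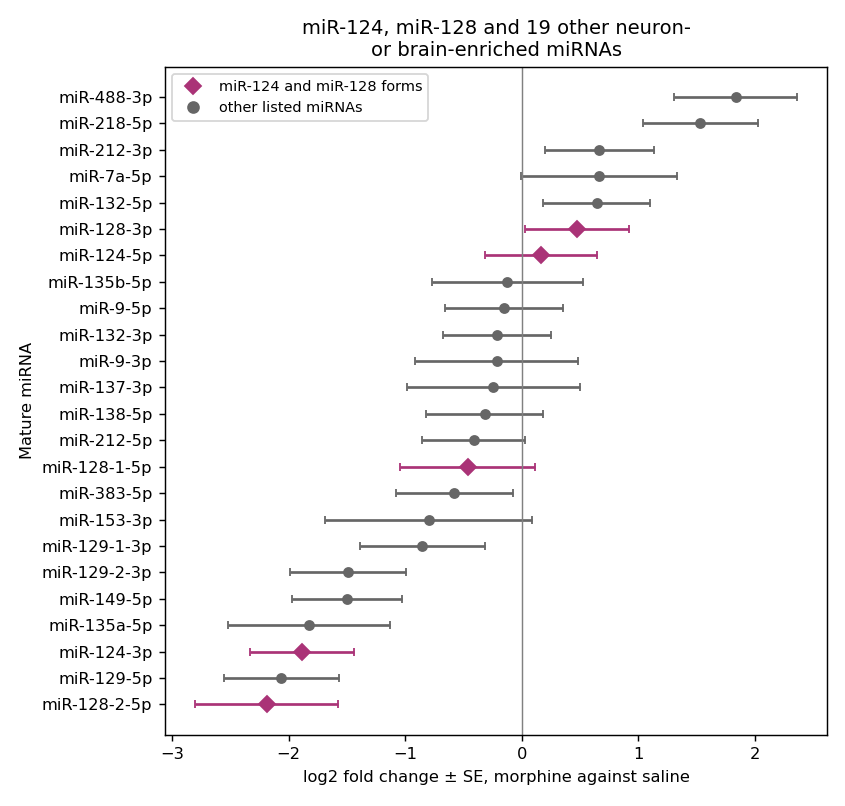
Points are log2 fold changes of morphine against saline with bars of 1 SE, for the miR-124 and miR-128 forms (purple diamonds) and 19 other neuron- or brain-enriched miRNAs (grey circles). miR-128-2-5p at -2.19, miR-129-5p at -2.07 and miR-124-3p at -1.88 lie at the lower end, and miR-128-3p at 0.47 and miR-124-5p at 0.16 lie right of 0.

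By Pearson's correlation of log2(CPM + 1) over the 6 libraries, among 369 other miRNAs with at least 100 counts on average, the levels most like miR-124-3p were those of miR-191-5p (r = 0.992), miR-425-3p (r = 0.988) and miR-700-5p (r = 0.986). miR-191-5p was at 4411, 4596 and 5810 CPM in the saline libraries and at 1771, 1567 and 1729 CPM in the morphine libraries. The levels most like miR-128-3p were those of miR-3470b (r = 0.992), miR-212-3p (r = 0.925) and miR-425-5p (r = 0.916). The arms of miR-425 thus appeared on either side, miR-425-3p beside miR-124-3p with a log2 fold change of -1.80 (SE 0.54), and miR-425-5p beside miR-128-3p with 1.32 (SE 0.45). These correlations describe 6 libraries that share their scaling factors and their groups.

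Marker miRNAs of other cell types were measured in the same libraries. The summed level of 2 endothelial markers was 1485 to 5002 CPM in the saline libraries and 10984 to 16264 CPM in the morphine libraries. The sum of 6 epithelial and choroid plexus markers was 1261 to 2584 CPM in the saline libraries and 683 to 866 CPM in the morphine libraries. Of 5 erythroid markers listed, 4 were measured, and their sum was 216 to 312 CPM with saline and 360 to 572 CPM with morphine. These 3 sums did not overlap between the groups. Over all miRNAs taken singly, the TMM levels of 22.1% did not overlap. The sums of the oligodendrocyte (2052 to 2183 and 1815 to 2290 CPM), myeloid or lymphoid (455 to 998 and 965 to 1187 CPM), mural and fibroblast (7165 to 18998 and 5780 to 13905 CPM) and multiciliated cell markers (78.0 to 879 and 281 to 423 CPM) overlapped. By the criteria of the study, the numbers called higher and lower were 1 and 0 of 2 endothelial, 3 and 1 of 6 epithelial and choroid plexus, and 1 and 0 of 4 erythroid markers. They were 0 and 1 of 4 oligodendrocyte, 1 and 1 of 6 myeloid or lymphoid, 1 and 0 of 6 mural and fibroblast, and 1 and 0 of 5 multiciliated cell markers. Over all miRNAs tested, 9.68% were called higher and 9.68% lower. With the filterByExpr filter, 96 of 594 were called higher and 90 lower. Without saline replicate 2 the numbers called higher and lower were 2 and 0 for endothelial, 1 and 1 for erythroid, 1 and 0 for oligodendrocyte, 4 and 1 for mural and fibroblast and 4 and 0 for multiciliated cell markers, with the other lists at the same counts. In that fit 492 of 1328 miRNAs met the criteria, 278 higher and 214 lower. The multiciliated sums overlapped through saline replicate 2 alone, since the other saline libraries were at 78.0 and 221 CPM. Without morphine replicate 1 the epithelial and choroid plexus list had 0 higher and 1 lower. The markers below were named after their values were seen. The markers called lower were miR-204-5p, the choroid plexus marker (log2 fold change -1.50, SE 0.46), miR-219a-5p of oligodendrocytes (-3.69, SE 0.95) and miR-150-5p of lymphocytes (-2.03, SE 0.51). Counts of miR-219a-5p were 15, 426 and 23 in saline replicates 1, 2 and 3 and 36, 5 and 3 in the morphine replicates. Its groups overlapped, and without saline replicate 2 no oligodendrocyte marker was called lower. The log2 fold changes of miR-219a-2-3p, miR-338-3p and miR-338-5p were 0.015, -0.31 and 0.22. The markers called higher were miR-126a-3p of endothelium (2.42, SE 0.50), miR-200a-3p, miR-200b-3p and miR-429-3p of epithelium, highest in morphine replicate 1, miR-451a of red cells, miR-146a-5p of immune cells, miR-199a-3p of mural cells and miR-34b-3p of multiciliated cells. miR-204-5p made up most of the epithelial and choroid plexus sum, so that sum was lower in the morphine group although the median log2 fold change of its 6 markers was 1.10 (0.063 without morphine replicate 1). Likewise, miR-126a-3p made up most of the endothelial sum. The other endothelial marker, miR-126a-5p, had a log2 fold change of -0.96 (SE 0.71), and its groups overlapped. Without saline replicate 1 or saline replicate 3 the endothelial list had 1 higher and 1 lower. Among the erythroid markers only miR-451a had a positive log2 fold change (1.57, SE 0.51). Those of miR-144-3p, miR-144-5p and miR-486a-5p were -1.31, -1.16 and -0.20. The erythroid median was -0.68, and it was 1.21 without saline replicate 2. miR-144-3p and miR-34b-5p had no count in at least 1 library. The part of these cell types in the miR-124 and miR-128 values was not tested.

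GC content of the mature miRNA also moved with the fitted change. Over 314 miRNAs with at least 100 counts on average and a RefSeq sequence (84.0% of such miRNAs), Spearman's rho of log2 fold change with GC content was -0.349 and Pearson's r was -0.316. Of 47 miRNAs with a GC content of at least 60%, 85.1% had a negative log2 fold change, with a median of -1.005. Over all 314 miRNAs 55.7% were negative, with a median of -0.187. The median was 0.29 for 57 miRNAs under 40%. miR-128-2-5p (60.9%) and miR-128-1-5p (66.7%) are in the GC-rich set, while miR-128-3p (47.6%) is in neither. Within that set, miR-128-1-5p had the higher GC content and the smaller change, but its log2 fold change ran from -0.92 to 0.16 when a library was left out. A single pair of miRNAs cannot decide what GC content contributed. The part of GC content in the values of the miR-128 forms was not tested.

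**Figure D5:**
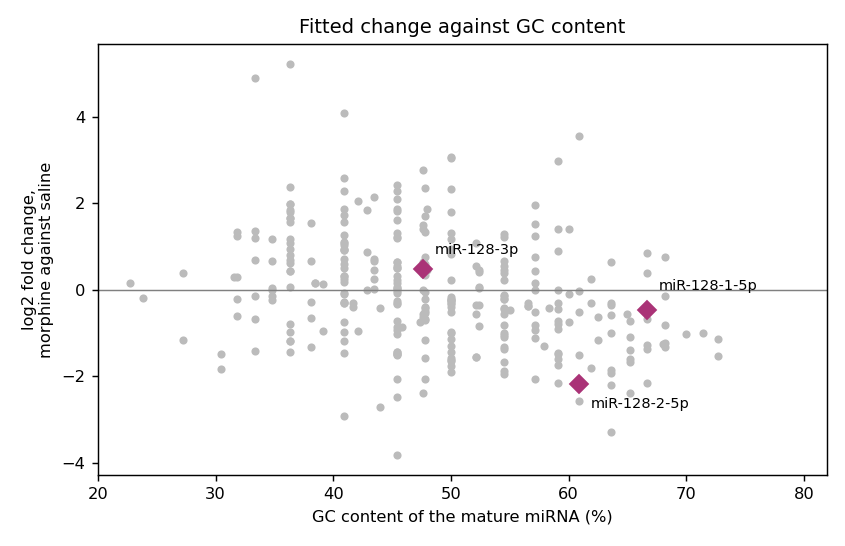
Each grey point is 1 of 314 miRNAs, placed by the GC content of its mature form in percent and by its log2 fold change of morphine against saline, and the miR-128 forms are purple diamonds. The points fall toward the right, and miR-128-2-5p at 60.9% lies lower than miR-128-1-5p at 66.7%.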

How the data were processed

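Small RNA from NAc was sequenced in 6 libraries, which were assigned to groups and replicates by the sample titles. The authors kept reads of 15 to 35 nt after cleaning, filtered other ncRNA and repeats with Bowtie, and compared the rest with miRBase. The counter, genome build and miRBase release are not given in the sources used here. The authors deposited raw counts per mature miRNA and TPM values, which follow the library totals with no length term and were not used in tests. Counts were tested with edgeR 4.0.16 (R 4.3.3), with TMM scaling and the quasi-likelihood F test on all 1364 miRNAs, and p-values were adjusted by the Benjamini-Hochberg method over all of them. Intervals of log2 fold changes used the moderated t quantile. Ratios used a pseudocount of 0.5 and exact permutation tests (scipy 1.17.1). A count of 3, the detection floor used, equals 0.315 to 0.549 CPM. The miRNAs named are the 5 of the 2 families, relatives sharing a locus or seed, the 3 most correlated with each guide strand, and, of the neuron list, those at an adjusted p under 0.05 and the 4 most abundant others. Other miRNAs of the neuron list, the markers named in the cell type lists and the rows named for near-equal counts were outside this rule. They were named after their values were seen. The members and lists were chosen with earlier results of these data known. The GC comparison and the ratios of other hairpins and of all pairs of miRNAs were added after the data were seen. The edgeR script was tested on simulated data. Alternatives were other scalings, DESeq2 1.42.0, the edgeR exact test, filters, removal of the 10 most abundant other miRNAs, a replicate block and leaving out each library.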

Additional observations from a re-analysis of the deposited data

How the results depend on the processing

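The criteria of the study called 264 miRNAs, between 179 and 298 under the other scalings, tests and filters and the replicate block, and between 176 and 492 when 1 library was left out. At an adjusted p under 0.05 there were 71, against 160 with library totals, 153 with upper quartile scaling, 156 with DESeq2, 110 with miRBase-named miRNAs only and 28 with at least 10 counts in total. Leaving out a library gave 0 (without morphine replicate 1, where 176 met the criteria on the unadjusted p) to 386 (without saline replicate 2). Same-numbered libraries correlated at -0.23, -0.28 and 0.14 in their deviations from group means, and no saline library correlated best with its own number. The numbers were therefore not used as pairs. With the replicate block there were 32 miRNAs at an adjusted p under 0.05, the log2 fold change of miR-124-3p was -1.85 (adjusted p = 0.0997 with edgeR) and that of miR-128-2-5p was -1.81 (adjusted p = 0.296 with edgeR). The block cannot change the log2 ratio differences, and its smallest exact p was 0.25.
The log2 fold change of miR-128-2-5p was -2.19 (adjusted p = 0.0687) with the edgeR exact test, -2.19 (adjusted p = 0.0914) with the filterByExpr filter and -2.25 (adjusted p = 0.101) with at least 10 counts in total. miR-124-5p reversed to -0.15 with library totals and to -0.10 with upper quartile scaling. Leaving out 1 library gave -2.04 to -1.54 for miR-124-3p, -0.0046 to 0.38 for miR-124-5p, -0.92 to 0.16 for miR-128-1-5p and -2.65 to -1.27 for miR-128-2-5p. Median log2 fold changes ranged from -0.43 to 0.50 for the neuron- or brain-enriched list, -0.78 to 1.21 for erythroid, 0.22 to 1.28 for multiciliated cell and 0.063 to 1.85 for epithelial and choroid plexus markers, whose lowest value, without morphine replicate 1, came with the loss of all 3 higher calls. The cause of these changes was not tested. The ratios kept their direction under all 8 alternatives. Where the groups did not overlap, leaving out a library could not turn the direction, and the replicate block could not change any ratio difference. Those alternatives are therefore no support for the direction. At counts of 64 to 94, miR-128-2-5p in the morphine libraries is the member most limited by depth.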
